A study of Mus musculus with 8 samples.

Results

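The sites described here are 342 stretches of mouse genome called as METTL14 peaks inside protein-coding genes, more than 2 kb from both ends of the gene. No library with a nonspecific antibody was analysed, so a call is not proof of binding. They were selected on the METTL14 calls themselves. The peaks of 4 METTL14 CUT&RUN libraries were merged wherever they shared at least 1 bp, which gave 8091 regions, and 2371 of these were called in 2 or more libraries. A region was kept when it lay inside a protein-coding gene, more than 2 kb from every protein-coding gene start or end, and overlapped no METTL3 peak. The 342 regions kept are 14.4% of the 2371, beside 1333 regions within 2 kb of a gene boundary, 500 outside genes and 196 that overlapped a METTL3 peak. Because presence in 2 libraries, gene position and METTL3 calls chose these sites, their number and their library combinations are given as a description, with no test.

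CUT&RUN uses an antibody to bring micrococcal nuclease to a chromatin protein, and the released fragments are sequenced. All libraries came from C57BL/6 mouse embryonic stem cells kept with LIF and the inhibitors CHIR99021 and PD0325901. METTL14 was profiled in Mettl3 CKO cells and in Mettl3 control cells, and METTL3 in Mettl14 CKO cells and in Mettl14 control cells, with 2 libraries in each of these 4 groups. The labels neither spell out CKO nor say how the cells were made, and nothing in them ties the libraries of 1 group to different cultures, so p-values here reflect only how far these libraries differ from one another, possibly for technical reasons. Peak lists cannot show whether Mettl3 was lost in the CKO cells.

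METTL14 is the RNA-binding partner of METTL3 in the nuclear methyltransferase that places N6-methyladenosine (m6A) on RNA, and METTL3 carries the catalytic activity. The enzyme is known to act while RNA is being made, so its subunits can be found on chromatin. In embryonic stem cells m6A is known for limiting the lifetime of transcripts of pluripotency and developmental genes.

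Each list gives only the place of a peak, with a deposited score of 1 for every peak, and read depth is unknown. There were 3922 and 1439 METTL14 peaks in the Mettl3 CKO libraries, against 3129 and 3546 in the Mettl3 control libraries. CKO replicate 2 therefore stands apart by its short list, and results that rest on it are also given without it. The 4 METTL3 lists were used only to leave out or locate sites. Intervals given with shares (95%, Wilson) reflect counting error alone.

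Of the 342 regions, 9 were called in all 4 libraries and also overlapped the window of a RefSeq transcription start inside the gene. Such a window has 300 bases and runs from 250 bases before the start to 50 after it. Overlap with a window does not mean that the region reaches the start itself, and most of these regions lay upstream of it. The windows of 6 of these 9 are printed because they show sequence at and beside the sites. They hold 11 to 27 CpG each, and 3 of the 6 hold 20 or more. The windows not printed, of Mast3, Arrdc3 and Sertad2, hold 26, 35 and 24 CpG. Sequences are from RefSeq (GRCm38.p6, the assembly behind mm10), 5′ to 3′ on the strand of the start, and capitals mark the bases inside the METTL14 region. Hoxd10 encodes a homeobox factor of limb and spinal cord patterning, and its window is chr2:74691641-74691940 on the plus strand, with 22 CpG, and the region (chr2:74691557-74691716) was centred 255 bp upstream of the start. Gm15050 is a long noncoding RNA gene inside Hoxa3 (chr6:52172631-52172930, plus strand, 25 CpG). 6430503K07Rik is a long noncoding RNA gene inside Nkx2-2 (chr2:147187174-147187473, plus strand, 11 CpG). Egr2 encodes a zinc finger factor of hindbrain segments and Schwann cells, and the window of its start with the most overlap is shown (chr10:67537619-67537918, plus strand, 19 CpG). Ptprs encodes a receptor tyrosine phosphatase of neurons (chr17:56462172-56462471, minus strand, 18 CpG). Mesd encodes a chaperone of Wnt co-receptors (chr7:83892016-83892315, plus strand, 27 CpG).
Hoxd10: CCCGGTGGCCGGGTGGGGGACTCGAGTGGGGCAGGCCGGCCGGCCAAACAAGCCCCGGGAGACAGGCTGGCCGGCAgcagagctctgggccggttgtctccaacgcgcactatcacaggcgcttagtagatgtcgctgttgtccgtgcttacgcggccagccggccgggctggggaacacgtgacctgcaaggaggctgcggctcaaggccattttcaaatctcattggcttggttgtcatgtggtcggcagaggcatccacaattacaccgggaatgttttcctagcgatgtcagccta
Gm15050: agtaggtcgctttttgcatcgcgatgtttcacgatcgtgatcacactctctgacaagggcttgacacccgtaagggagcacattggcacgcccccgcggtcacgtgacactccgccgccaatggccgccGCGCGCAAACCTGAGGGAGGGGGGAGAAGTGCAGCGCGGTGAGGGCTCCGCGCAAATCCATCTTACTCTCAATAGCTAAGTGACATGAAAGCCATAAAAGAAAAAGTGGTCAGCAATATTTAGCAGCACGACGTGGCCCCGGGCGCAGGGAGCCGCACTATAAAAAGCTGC
6430503K07Rik: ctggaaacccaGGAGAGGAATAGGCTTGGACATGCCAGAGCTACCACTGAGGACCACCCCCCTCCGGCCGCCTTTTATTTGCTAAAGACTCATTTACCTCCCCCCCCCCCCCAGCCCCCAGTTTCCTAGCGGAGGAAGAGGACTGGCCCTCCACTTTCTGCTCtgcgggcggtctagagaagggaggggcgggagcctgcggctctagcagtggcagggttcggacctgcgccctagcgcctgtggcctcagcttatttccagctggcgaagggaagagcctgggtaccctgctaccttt
Egr2: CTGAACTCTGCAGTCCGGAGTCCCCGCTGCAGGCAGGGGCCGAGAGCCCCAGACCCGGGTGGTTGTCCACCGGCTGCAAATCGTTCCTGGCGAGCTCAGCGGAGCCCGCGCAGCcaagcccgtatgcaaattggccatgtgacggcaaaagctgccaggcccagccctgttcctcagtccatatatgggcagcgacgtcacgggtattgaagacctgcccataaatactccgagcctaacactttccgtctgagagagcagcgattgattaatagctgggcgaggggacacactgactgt
Ptprs: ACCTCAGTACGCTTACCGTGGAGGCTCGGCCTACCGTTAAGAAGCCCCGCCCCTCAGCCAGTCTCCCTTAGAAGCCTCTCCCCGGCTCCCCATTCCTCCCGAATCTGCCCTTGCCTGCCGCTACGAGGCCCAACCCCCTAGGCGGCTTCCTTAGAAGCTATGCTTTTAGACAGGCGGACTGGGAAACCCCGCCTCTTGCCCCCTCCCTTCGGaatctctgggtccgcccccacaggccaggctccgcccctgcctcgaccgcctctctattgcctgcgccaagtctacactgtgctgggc
Mesd: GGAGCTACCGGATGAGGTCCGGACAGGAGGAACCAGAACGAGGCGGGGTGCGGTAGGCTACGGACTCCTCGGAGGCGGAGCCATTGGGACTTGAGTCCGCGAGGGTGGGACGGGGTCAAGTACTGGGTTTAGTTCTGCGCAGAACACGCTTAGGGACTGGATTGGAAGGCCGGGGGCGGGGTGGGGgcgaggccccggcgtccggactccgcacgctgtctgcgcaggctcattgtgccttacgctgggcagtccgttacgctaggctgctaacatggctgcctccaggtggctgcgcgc

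The first question was whether METTL14 peaks lay deep in gene bodies as often in cells labelled Mettl3 CKO as in Mettl3 control cells. This used every peak of each library, also those called in 1 library only, so the selection of the 342 regions did not fix it. In the Mettl3 CKO libraries 706 of 3922 peaks (18.0%, interval 16.8% to 19.2%) and 180 of 1439 peaks (12.5%, 10.9% to 14.3%) were deep in a gene body. In the Mettl3 control libraries the counts were 688 of 3129 (22.0%, 20.6% to 23.5%) and 691 of 3546 (19.5%, 18.2% to 20.8%). Both CKO shares lay below both control shares. The means were 15.3% ± 3.88 in CKO and 20.7% ± 1.77 in control libraries (SD, n = 2 each), a difference of -5.48 percentage points (exact permutation test of the 4 labels, two-sided p = 0.333, the smallest this design can give). The difference was -2.74 points without CKO replicate 2 and -8.23 points without CKO replicate 1.

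The deep share moved with list position. Over whole lists it did not simply follow length, since the longest list (CKO replicate 1, 18.0%) held a smaller share than both control lists (22.0% and 19.5%). Each deposited list was cut into 4 parts of equal length, and in every METTL14 library deep peaks were a larger share of the last part than of the first. The last part held 23.3% deep peaks against 14.5% in the first in CKO replicate 1, and 14.8% against 10.3% in CKO replicate 2. The same shares were 32.0% against 16.5% in control replicate 1 and 28.6% against 15.8% in control replicate 2. With every list shortened to its first 1439 peaks, 15.1% and 12.5% of peaks were deep in the CKO libraries, against 17.2% and 15.4% in the controls, and the difference was -2.54 points. The part of list length in the difference between genotypes was not tested beyond this shortening.

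The share of deep peaks also called in another library was below that of boundary peaks in each of the 4 libraries. In CKO replicate 1, 37.8% of deep peaks were also called in another METTL14 library, against 51.1% of its peaks within 2 kb of a gene boundary. In CKO replicate 2 the shares were 72.2% and 77.2%. In control replicate 1 they were 32.7% and 61.2%, and in control replicate 2 they were 36.3% and 55.7%. The mean was 44.8% ± 18.4 for deep peaks and 61.3% ± 11.4 for boundary peaks (SD, n = 4 libraries), a difference of -16.5 points. Being called in another library is also what the rule asked of the sites, so this is a description with no test. Without CKO replicate 2 the difference was -18.4 points, and at equal list length it was -4.97 points. The 4 libraries are compared with one another here, so their values are not independent.

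**Figure D1:**
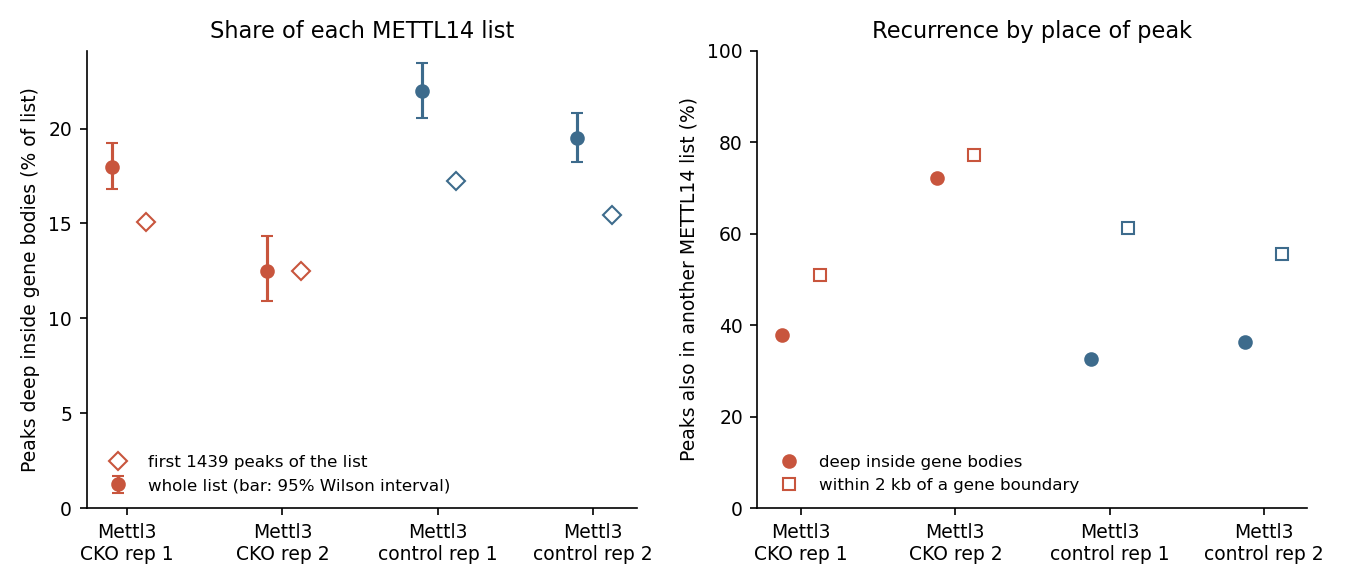
Left, percent of each METTL14 list that lay deep inside gene bodies, for the whole list (circles, bars are 95% Wilson intervals) and for its first 1439 peaks (diamonds). Right, percent of deep peaks (circles) and of boundary peaks (squares) also called in another METTL14 library; Mettl3 CKO libraries are red, control libraries blue, and deep peaks sit below boundary peaks in all 4.

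Among the 342 regions, 264 (77.2%) and 130 (38.0%) were called in the CKO libraries and 223 (65.2%) and 250 (73.1%) in the control libraries. These shares run in the order of list length. The same shares over all 2371 regions were not computed, so nothing particular to the deep regions is read from them. There were 205 regions called in 2 libraries, 91 in 3 and 46 in all 4. The 46 are 13.5% of the deep regions, beside 19.7% of all 2371 regions called in 2 or more libraries and 17.3% of the 1333 boundary regions. Without CKO replicate 1, which has the longest list, 204 regions met the rule. Without control replicate 2 the number was 219, and without CKO replicate 2 it was 298. Just outside the rule stood 1392 deep regions called in 1 library only. Their median place in the deposited lists was 73.9% of the way down, against 47.2%, 37.2% and 19.1% for regions called in 2, 3 and 4 libraries.

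With whole lists, the shares of sites called in 1 genotype only were near those over all regions. Both CKO libraries and no control library called 18 of the 342 regions (5.26%), beside 5.95% of all 2371 regions. Both control libraries and no CKO library called 41 (12.0%), beside 10.2%. The commonest combination was CKO replicate 1 with control replicate 2 (67 regions, 19.6%), beside 18.8% of boundary regions. These libraries have the longest lists. CKO replicate 1 with control replicate 1 followed (53 regions, 15.5%), beside 12.0% of boundary regions. With all lists shortened to equal length, 189 regions met the rule, of which 17 were CKO-only and 22 control-only. Shares over all regions were not computed at that length, so these counts have no background beside them. A control peak lay within 500 bp of 5 of the 18 CKO-only deep regions (27.8%), beside 34 of 89 CKO-only boundary regions (38.2%). A CKO peak lay within 500 bp of 10 of the 41 control-only deep regions (24.4%), beside 48 of 128 control-only boundary regions (37.5%).

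**Figure D2:**
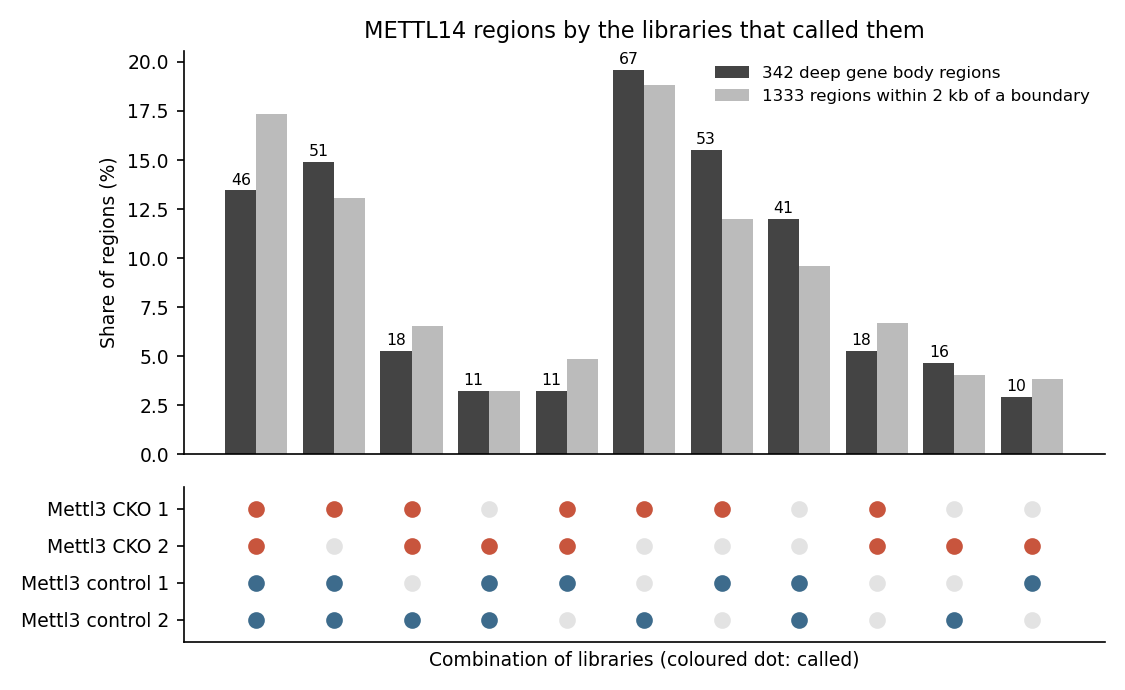
Share of the 342 deep regions (dark bars, with counts) and of the 1333 boundary regions (light bars) by the combination of METTL14 libraries that called them, which the dots below name. There are 18 CKO-only and 41 control-only deep regions, and the largest bar is CKO replicate 1 with control replicate 2.

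The best placed CKO-only regions were in developmental transcription factor genes. The first was in Tfap2a, an AP-2 factor of neural crest and face (chr13:40733758-40733968, list positions 229 of 3922 and 203 of 1439 in the CKO libraries), with a control peak 130 bp away. The next was in Meis1, a cofactor of Hox proteins (chr11:19014875-19015100, positions 278 and 390), where the nearest control peak was 3710 bp away. Lmx1b, which patterns the dorsal limb, had a region 10 bp from a control peak (chr2:33637424-33637609, positions 630 and 600). In Hoxd3 (chr2:74735249-74735423, positions 1060 and 710) and in Nkx2-2, a factor of the ventral neural tube and pancreas (chr2:147178742-147178951, positions 911 and 797), control peaks lay 2136 and 3860 bp away.

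The best placed control-only regions described here each had a CKO peak within 366 bp. The region in Sfi1, which encodes a centrin-binding centrosome protein, was at positions 48 of 3129 and 55 of 3546 in the control lists (chr11:3193398-3193599), with a CKO peak 67 bp away. The one in Hoxd11, a homeobox factor of limb patterning (chr2:74681785-74681933), had a CKO peak at 100 bp. Those in Pax2, a paired box factor of kidney and ear (chr19:44757370-44757621), and Pax7, a paired box factor of muscle stem cells and neural crest (chr4:139823902-139824064), had CKO peaks at 366 and 18 bp. A missing call at these places is therefore not an absence of CKO peaks from the gene.

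The best placed regions called in all 4 libraries included several in patterning factors. The foremost was in Sfi1 (chr11:3186076-3186239), at positions 57 and 57 in the CKO lists and 68 and 59 in the control lists. It lay 311 bp from a METTL3 peak. Hoxd10 held a pair of them, with the one at its start window at positions 79 and 69 in CKO and 99 and 94 in control lists, and the other at chr2:74691132-74691331. Nr2f2, an orphan nuclear receptor of vein and heart development, had one at chr7:70361957-70362112 (positions 89 and 124 in CKO, 151 and 137 in control lists). Hoxa3, a factor of pharyngeal arch patterning, had one at chr6:52172760-52172972 (123 and 208 in CKO, 184 and 228 in control lists). A further pair was in Tmem267 (chr13:119601426-119601612 and chr13:119492085-119492395), at 266 and 2855 bp from a METTL3 peak. All of these were in the front of all 4 lists.

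The host genes were 273 in number (164 without CKO replicate 1), or 1.55% of the 17598 protein-coding genes that have sequence more than 2 kb from every boundary. Of these, 232 held 1 region, 26 held 2 and 15 held 3 or more, and 4 regions lay in a pair of overlapping genes. Long genes offer more such sequence, yet the sites were sparser there. There were 1.49 regions per Mb of deep sequence in genes under 20 kb (74 regions), 0.634 at 20 to 50 kb, 0.397 at 50 to 100 kb, 0.290 at 100 to 300 kb and 0.103 in genes over 300 kb (32 regions), beside 0.360 over all 950 Mb. The regions called in 1 library ran the same way, at 3.88, 2.67, 1.74, 1.23 and 0.610 per Mb. The median host gene was 57.6 kb long (order-statistic interval 40.8 to 77.3 kb), against 24.5 kb for all genes with deep sequence and 157 kb when those genes were weighted by their deep sequence. The median host length was 33.8 kb with lists of equal length and 93.4 kb with a boundary distance of 5 kb, both outside that interval.

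The sites clustered toward the 5′ end of the gene. For 264 regions the strand of the host gene was known. Of these, 173 (65.5%) lay nearer the 5′ end than the 3′ end. The stretch of the gene more than 2 kb from both of its ends was cut into 5 equal bins, and 105 regions (39.8%) lay in the bin next to the 5′ end and 37 of the 264 in that next to the 3′ end. For deep regions called in 1 library the shares were 27.4% and 14.7%. The median distance to the nearest protein-coding boundary was 7487 bp, and the shortest was 2019 bp. There were 128 regions within 5 kb of a boundary, which 5 kb in place of 2 kb would leave out, and 48 more than 50 kb away. One of the far sites, in Dock2, an activator of Rac in lymphocytes, was called in all 4 libraries (chr11:34681838-34682104, positions 216 and 210 in CKO, 455 and 230 in control lists), 101801 bp from the nearest boundary.

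Part of the sites overlapped windows of transcription starts inside the annotated gene. RefSeq start windows overlapped 64 of the 342 regions (18.7%, interval 14.9% to 23.2%), of which 55 touched a window of the host gene itself and 12 a window of a long noncoding RNA. Among deep regions called in 1 library the share was 7.40% (6.14% to 8.89%), and it was 18.0%, 19.8% and 19.6% for 2, 3 and 4 libraries. Restricted to regions whose host gene is in the table of starts, 63 of 264 (23.9%, 19.1% to 29.4%) touched a window, against 101 of 1097 (9.21%, 7.64% to 11.1%) called in 1 library. Within 500 bp of a window lay 102 regions (29.8%), against 12.6% of those called in 1 library. The number of libraries is part of the rule, so these shares are a description.

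**Figure D3:**
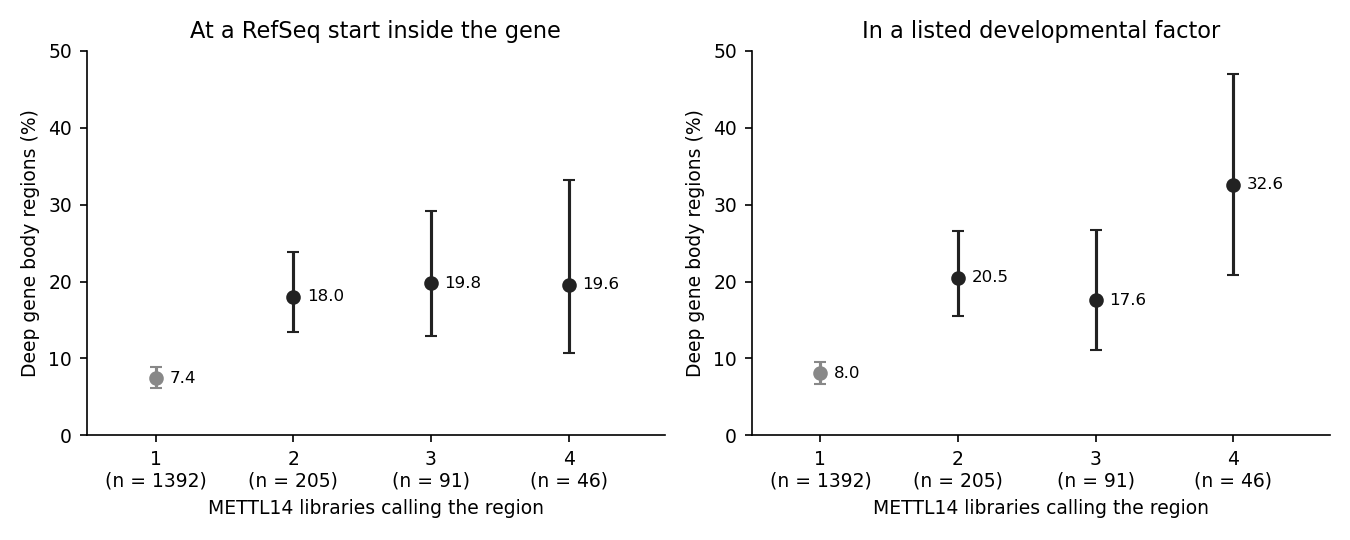
Percent of deep gene body regions that overlap a RefSeq start window (left) and that lie in a listed developmental transcription factor (right), by the number of METTL14 libraries that called the region; points are shares and bars 95% Wilson intervals. Regions called in 1 library (grey) are outside the rule and sit at 7.40% and 8.05%.

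Seen from the start windows, the sites overlapped few of those available. They overlapped 60 of 3071 windows of protein-coding genes deep inside gene bodies (1.95%) and 14 of 2503 windows of long noncoding RNA genes there (0.559%). The coding windows with a site had a median of 23.5 CpG per 300 bases and a GC content of 63.5%, against 7 CpG and 53.3% in the 3011 without one. Among deep coding windows, the 93 with a region called in 1 library had a median of 21 CpG and a GC content of 63.0%, close to those with a site, and 58.1% of them held 20 or more CpG. With a site against without one, the observed over expected CpG ratio was 0.802 against 0.349, and 68.3% against 20.7% of windows held 20 or more CpG. Coding windows at gene boundaries with a replicated METTL14 region had the same median of 23.5 CpG, beside 14 in all 18192 coding windows there. Of these windows, 68.1% with a replicated region and 38.4% of all held 20 or more CpG. The CpG count was read as the letters CG on 1 strand, which is the same count on the other strand. Regions called in 3 libraries overlapped start windows of other hosts. These included Runx1, a factor of blood stem cells (chr16:92697149-92697328, positions 970 and 1307 in CKO lists and 2140 in that of control replicate 2), and Pax2 (chr19:44756817-44757004, position 477 in CKO replicate 1, 535 and 362 in control lists).

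Among the 7 gene lists, developmental transcription factors held the most sites per Mb. Of 125 listed genes that could hold a deep region, 40 (32.0%) held 73 regions, or 5.20 per Mb of their deep sequence, beside 1.55% of all genes and 0.360 per Mb. Median gene length in the list was 29.9 kb, and all genes of 20 to 50 kb held 0.634 per Mb. Regions called in 1 library ran at 7.98 per Mb in the list, beside 2.67 per Mb in all genes of 20 to 50 kb. The list was made with earlier results of these data known, so it is not independent evidence. The share of deep regions in this list was 8.05% for 1 library, 20.5% for 2, 17.6% for 3 and 32.6% for 4, and 33.3% for regions called in 2 or more lists of equal length. Their median list place was 14.4% of the way down, against 46.4% for the other 269 regions. In these genes 58 of 73 regions (79.5%) had another replicated METTL14 region within 10 kb, against 64 of 269 (23.8%) in other genes, so the regions of a gene are not separate observations. CKO replicates 1 and 2 called 67.1% and 52.1% of the 73, and control replicates 1 and 2 called 74.0% and 69.9%. For the other regions these shares were 79.9% and 34.2% in CKO and 62.8% and 74.0% in control libraries. Both CKO libraries and no control library called 6 of the 73 (8.22%), beside 12 of the other 269 (4.46%). Both control libraries and no CKO library called 11 (15.1%), beside 30 of the other 269 (11.2%).

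Clusters of sites ran through several of these genes. Tfap2a (24.4 kb) held 5, and the one called in all 4 libraries (chr13:40722951-40723205) was at positions 228 and 426 in CKO and 352 and 906 in control lists. Pax2 (91.7 kb) held 4, at 4447 to 13030 bp from its 5′ boundary. Tfap2b, an AP-2 factor of kidney and neural crest, held 4, the first starting at chr1:19233947-19234154 and the last at chr1:19235467-19235616, 1 of them in 3 libraries and none in all 4. Hoxb3 held 4 and Evx2, a homeobox gene at the end of the HoxD cluster that is not in the list, held 4 in a gene of 8.53 kb. One of the Hoxb3 regions (chr11:96311799-96311964) stood at positions 201 and 234 in CKO and 182 and 231 in control lists. The Evx2 region called in all 4 libraries (chr2:74658370-74658745) stood at 281 and 261 in CKO and 243 and 275 in control lists. None of the plotted transcription factor genes had a METTL3 peak, in METTL3 lists of only 242 to 353 peaks.

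**Figure D4:**
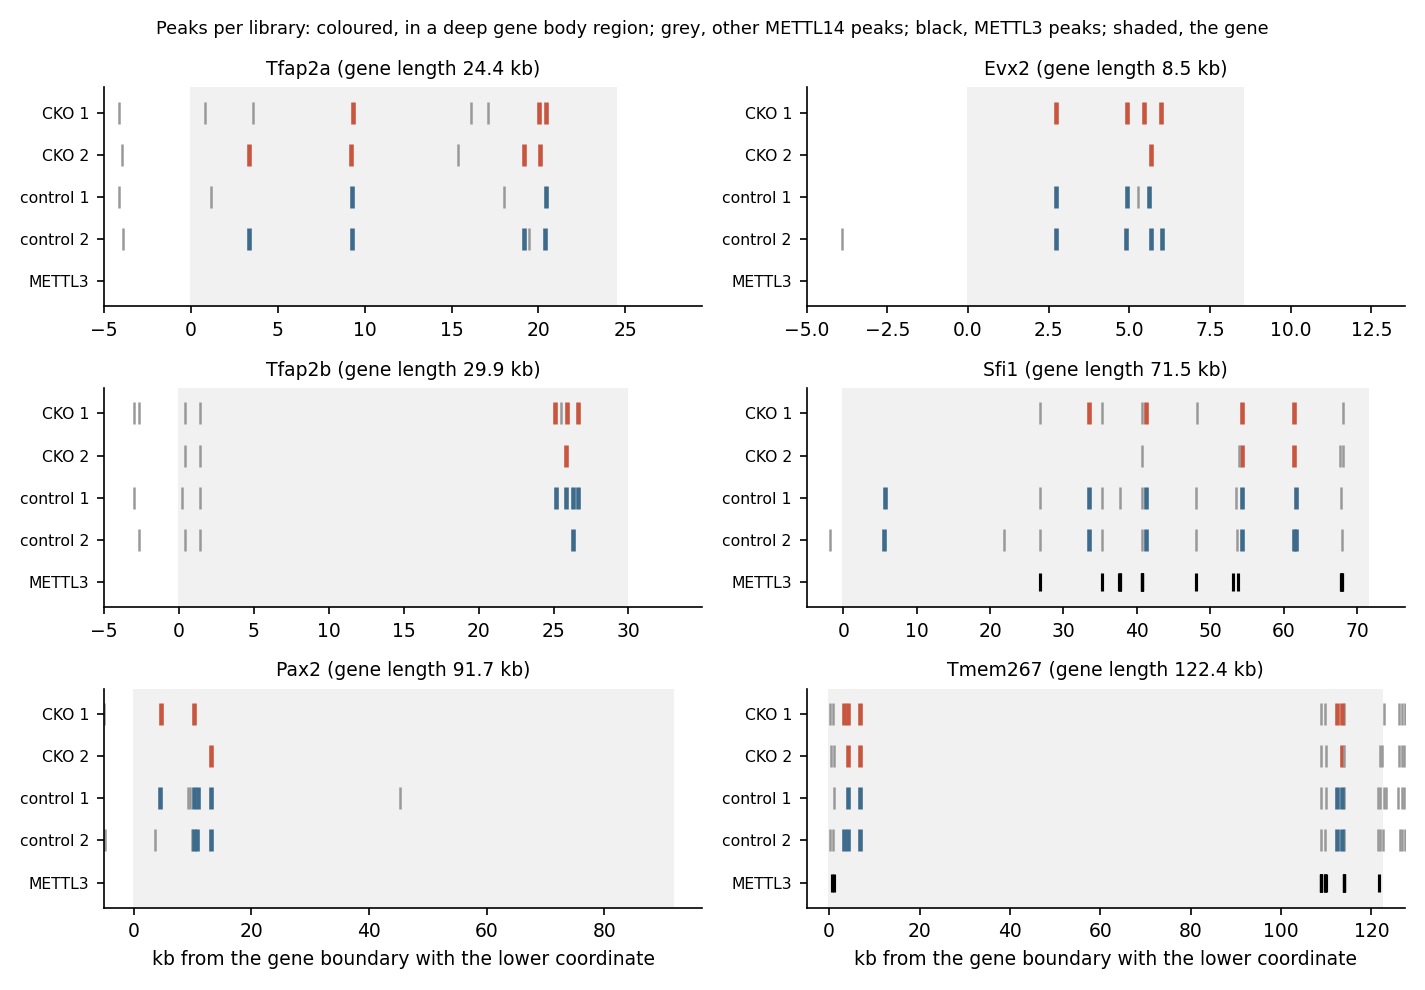
Peaks of each METTL14 library (Mettl3 CKO rows above control rows) and of all METTL3 libraries along 6 genes, in kb from the gene boundary with the lower coordinate; coloured ticks belong to a deep gene body region, grey ticks do not, and the shaded span is the gene. Tfap2a, Tfap2b, Pax2 and Evx2 have no METTL3 tick, while Sfi1 and Tmem267 have several.

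Sfi1 and Tmem267 were hosts of another kind, with METTL3 peaks between the METTL14 sites. Sfi1 (71.5 kb) held 6 regions and Tmem267 (122 kb) held 5. Over all 342 regions, 19 (5.56%) lay within 10 kb of a METTL3 peak without touching one, and 10 of the 19 were in these 2 genes. The rest were in Zfp978 (1331 and 4399 bp from a METTL3 peak), Pde7b, Iffo2, A530032D15Rik, Gm7592, Gm38510, Banp and the overlapping pair Sp110 and Sp140. None of the 19 was in a listed transcription factor gene and 1 was at a start window. Without them, 323 regions remained, of which 22.6% were in listed developmental factors and 19.5% at a start window.

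In other gene lists the sites numbered from 0 to 10. Among signalling ligands and receptors, 6 of 71 genes that could hold a region held 1 each (8.45%, 0.685 per Mb). Wnt5a, a ligand of the non-canonical Wnt pathway (chr14:28507463-28507654), was called in CKO replicate 1 (position 384) and in both controls (568 and 559). Ptch1, the Hedgehog receptor (chr13:63567869-63568037), was called in both CKO libraries (2437 and 849) and in control replicate 1 (843). The other 4, in the growth factor genes Bmp7 and Nrg1, the receptor gene Pdgfra and Axin2, a feedback inhibitor of Wnt signalling, were called in CKO replicate 1 and control replicate 2. The same combination called the regions in Phf19, an accessory subunit of Polycomb repressive complex 2, and in Kdm6b, an H3K27 demethylase, the 2 hosts among 38 Polycomb, trithorax and demethylase genes that could hold a region (5.26%, 0.973 per Mb). It also called the 1 region in a pluripotency factor (1 of 19 genes, 5.26%, 2.08 per Mb), in Esrrb, a nuclear receptor of naive pluripotency. Of 353 Zfp zinc finger genes that could hold one, 7 held 10 regions (1.98%, 0.996 per Mb), with 4 of them in Zfp978. The values over all genes were 1.55% and 0.360 per Mb, and these lists rest on 1 to 10 regions each. Density also depended on gene length, at 1.49 per Mb in genes under 20 kb and 0.634 per Mb at 20 to 50 kb. Median gene length was 13.7 kb in the pluripotency list and 19.3 kb in the Zfp list. It was 41.7 kb in the Polycomb, trithorax and demethylase list and 46.4 kb in the signalling list. Regions called in 1 library ran at 6.25, 4.18, 3.40 and 1.03 per Mb in these lists, in that order.

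Neural adhesion and axon guidance genes, many of them very long, held none. Their 64 genes have a median length of 695 kb and 51.1 Mb of deep sequence, and 19 deep regions called in 1 library lay there (0.372 per Mb). In all genes over 300 kb the densities were 0.103 per Mb for the sites and 0.610 per Mb for regions called in 1 library. The 23 listed m6A factors have 1.12 Mb of deep sequence and held no site, and 2 regions called in 1 library lay there (1.78 per Mb, beside 1.46 per Mb over all genes).

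**Figure D5:**
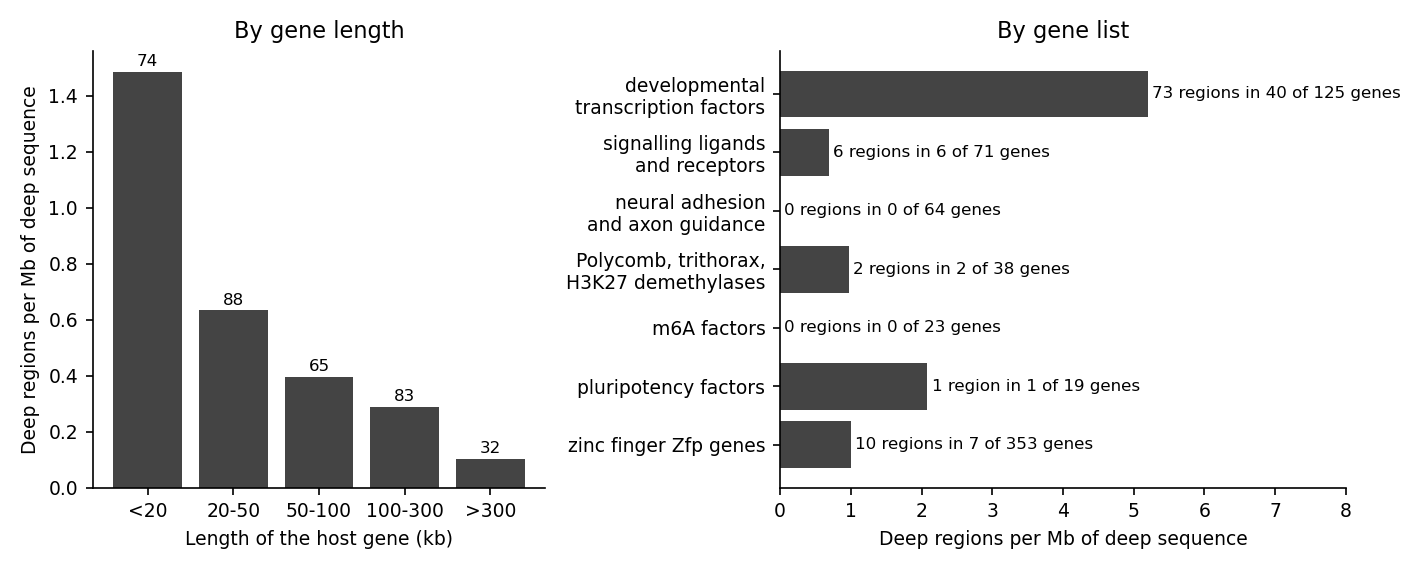
Deep gene body regions per Mb of gene sequence more than 2 kb from every boundary, by length of the host gene (left, with the number of regions above each bar) and by gene list (right, with the number of regions and genes). Density is 1.49 per Mb in genes under 20 kb, 0.103 in genes over 300 kb and 5.20 in developmental transcription factors.

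Some hosts had METTL14 peaks at their ends as well. A replicated region within 2 kb of a boundary was present at 47 of the 273 hosts (17.2%), beside 1275 of all 17598 genes that could host a site (7.25%), hosts included. The sites were uneven over chromosomes. Chromosomes 11, 7 and 3 held 0.700, 0.679 and 0.650 per Mb of deep sequence. The X chromosome held 1 region in 42.1 Mb (0.0237 per Mb) and 2 regions called in 1 library. Of all 8091 METTL14 regions, 37 were on X, so the low number there is not limited to gene bodies. The number of X chromosomes in these cells is not given in the labels.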

How the data were processed

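Peak lists of 8 CUT&RUN libraries were used. Each library has its own list, with a deposited score of 1 for every peak, so the authors' score carries no height, enrichment or significance. Per the submitters' processing notes, the build was mm10 and the tools included HOMER, SAMtools, Bowtie2 2.4.1, Trimmomatic 0.38 and CASAVA (listed without their roles). How deeply each library was read, which threshold was set and whether a background library served is not given in the sources used here, so the number of peaks cannot be set against depth.

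Regions, classes and shares were computed in Python 3.11.15 (numpy 2.4.6, SciPy 1.17.1), figures with matplotlib 3.10.9. Merging was checked against bedtools 2.31.1 and classes were tested on simulated regions (391 of 391 recovered). Gene positions (21900 protein-coding genes) and start windows come from RefSeq tables for GRCm38.p6. Exon and intron position was not analysed here. Peaks have no measured strength, so regions were ordered by place in the deposited lists (position divided by list length, averaged over the calling libraries), whose meaning is not given in the sources used here.

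Groups come from the sample titles. The share of deep peaks was tested by exact permutation of the 4 labels. A planned sign-flip test of recurrence is not reported, since the calls it compares also chose the regions. Named regions were the 10 best placed in all 4 libraries, the 5 best in both CKO and no control library, the 5 best in both control and no CKO library, up to 6 per gene list, and genes with the most regions (up to 8). Some regions that this rule selects are not reported here. Dock2, Runx1, Egr2, Ptprs, Mesd and the windows in Nkx2-2 and Pax2 were named after their values were seen. The members and lists were chosen with earlier results of these data known. Alternatives covered overlap, boundary distance, list length, the number of libraries, METTL3 overlap and leaving out each library.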

Additional observations from a re-analysis of the deposited data

How the results depend on the processing

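The share of deep peaks stayed lower in CKO than in control libraries, and the recurrence of deep peaks lower than that of boundary peaks, under every alternative run. Leaving out 1 library gave -8.23 to -2.74 points for the share (the smallest difference was without CKO replicate 2) and -18.4 to -11.7 points for recurrence. Replicate numbers did not pair the libraries (correlation of same-numbered deviations 0.00715 over 8091 regions and -0.0481 over 2371), and with the replicate number as a block the share differed by -5.48 points (exact sign-flip permutation p = 0.5, the smallest possible).

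The number of sites followed the rule closely. It was 214 at a distance of 5 kb, 189 at equal list length, 137 with 3 or more libraries, 1734 with any 1 library, and 204 (without CKO replicate 1) to 298 without 1 library. CKO-only and control-only sites numbered 9 and 27 at 5 kb, and 17 and 22 at equal length. They need both libraries of each group, so leaving 1 out gives no value. Host genes numbered 139 at equal length, 114 with 3 or more libraries, 1267 with any library and 164 (without CKO replicate 1) to 243 without 1 library. Median host length was 38.3 kb at a distance of 1 kb, 93.4 kb at 5 kb, 33.8 kb at equal length and 55.0 to 58.3 kb without 1 library. The share at start windows was 9.63% with any library and 16.7% to 21.1% without 1 library, and the share in listed developmental factors 10.7%, 33.3% at equal length and 19.8% to 24.5%. The shares at starts and in factors, and the setting without sites near METTL3 peaks, were chosen after seeing the data. Fewer sites enter under stricter rules by construction. Of 65 named regions, 29 stayed members at 5 kb, 54 at equal length and 42 to 58 without 1 library.

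Lists without depth or peak strength cannot tell a weak site from none, and no library with a nonspecific antibody was analysed here.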
